A study of Drosophila melanogaster with 4 samples.

Results

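The regions described here are the H3K4me1-enriched regions whose midpoint lay within 1 Mb of the telomeric end of 4 chromosome arms of Drosophila melanogaster. On release 5 of the FlyBase genome these windows were X:1-1000000, 2L:1-1000000, 3L:1-1000000 and 3R:26905054-27905053. The assembled end on the telomere side is coordinate 1 for X, 2L and 3L and the last base for 3R. Position alone chose the members: 266 of 7177 enriched regions in ChIP replicate 1, 359 of 9903 in ChIP replicate 2 and 347 of 9501 in the list deposited for the series as a whole, called the combined list. The study mapped monomethylation of lysine 4 of histone H3 by sequencing immunoprecipitated chromatin (ChIP-seq), prepared from the nuclei of Oregon-R larvae, a wild-type strain, at the 3rd instar, the last larval stage. All 4 samples share this strain, genotype and stage: 2 ChIP samples, made with a new lot of the antibody ab8895, and 2 input samples of chromatin that had not been precipitated, each of which served 1 ChIP list. The nuclei carry no label of a tissue, so cell types cannot be told apart, and the label could not be checked against marker genes with lists of regions. The lists hold no read counts, so their depth is unknown. Both replicates are named as samples only, and their spread may be technical.

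H3K4me1 is laid down by COMPASS-family methyltransferases, in flies mainly Trithorax-related, and is known from enhancers and from the flanks of active promoters. Drosophila has no telomerase, and its chromosome ends are maintained by the retrotransposons HeT-A, TART and TAHRE, with blocks of telomere-associated repeats next to them that silence inserted reporter genes. Unique, gene-bearing sequence begins inward of these repeats. In RefSeq's table of release 6, the coding genes nearest the end of 2L are, in order, l(2)gl, a cell-polarity gene and tumour suppressor, Ir21a, an ionotropic receptor of cool-sensing neurons, and Cda5. Those nearest the end of 3R are Map205, a microtubule-associated protein, mod and krz, a beta-arrestin. On 3L they are mthl8, of the methuselah family of receptors, CG43149 and Lsp1gamma, a larval serum protein. On X the order begins with SteXh:CG42398, CG17636 and RhoGAP1A. These names give the neighbourhood only. No region was assigned to a gene, because the coordinates of that table belong to another release.

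Among full 1 Mb windows counted from the telomeric end, the tips of 2L and 3L were the most densely covered of their arms. The tips of X and 3R were not. Coverage, the share of bases inside enriched regions, was 43.8% in replicate 1 and 47.7% in replicate 2 at the tip of 2L, against medians of 26.5% and 27.6% over the other 22 full windows of that arm. At the tip of 3L it was 49.2% and 53.1%, against 28.9% and 29.6% over the other 23 windows. Each of these tips ranked 1st on its arm in every one of the 3 lists, and in the combined list it was covered to 52.7% on 2L and 59.6% on 3L. The densest of the other windows reached 39.3% and 38.6% on 2L, and 44.5% and 49.4% on 3L, so the margin was narrowest on 3L in replicate 2.

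The tip of X was covered to 26.0% and 28.3%, below the medians of 32.6% and 35.8% of the other 21 windows, and ranked 16th of 22 in both replicates. The tip of 3R was covered to 25.4% and 33.3%, against medians of 30.0% and 33.0%, and ranked 17th of 27 in replicate 1 and 14th in replicate 2. The coverage difference between the tip and the median of the other windows was thus 18.7 ± 2.01 percentage points on 2L (SD, n = 2), 21.9 ± 2.26 on 3L and -7.00 ± 0.607 on X, each larger than the spread between replicates. On 3R it was -2.13 ± 3.43 points, within that spread, and it changed sign with the replicate: -4.56 in replicate 1 and 0.288 in replicate 2. The spread between replicates tells how well a tip repeats and not how far windows vary along an arm. Unlike the tips of 2L and 3L, the X tip lay inside the range of its arm's other windows. The sparsest of those on X was covered to 13.5% and the densest to 46.0% (replicate 1), or 15.8% and 58.4% (replicate 2). With 2 samples in 1 group an exact permutation test is unable to give a p below 0.05, and windows are not replicates, so no p is given here or below. With windows of 500 kb the difference on 3R was 4.38 points.

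**Figure D1:**
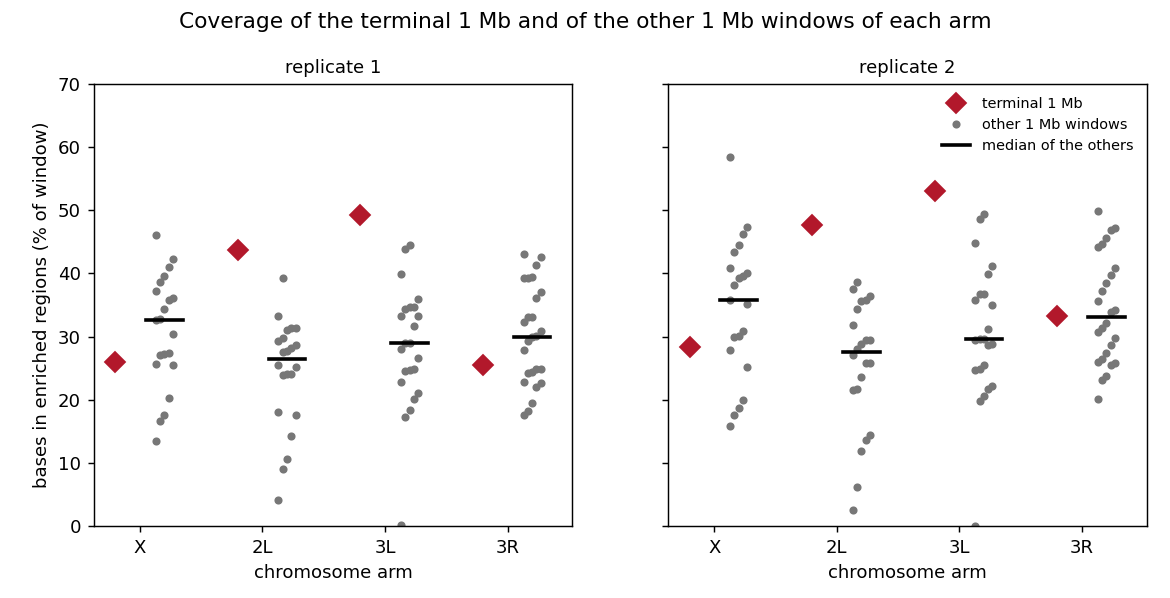
Share of bases in enriched regions (y axis, % of a 1 Mb window) for the terminal 1 Mb (red diamonds) and the other full 1 Mb windows of the same arm (grey points, black bar at their median), by arm (x axis), with replicate 1 on the left and replicate 2 on the right. The diamonds of 2L and 3L lie above every other window of their arm in both replicates, and those of X lie below the median of theirs.

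An alternative added after seeing the data used windows started every 50 kb that lay wholly outside the tip. Against these, the tip of 2L exceeded all 421 and the tip of 3L all 451, in each of the 3 lists. The closest of these windows came to 43.4% on 2L and 45.1% on 3L in replicate 1, and to 46.0% and 51.7% in replicate 2. The tip of X exceeded 26.9% and 29.3% of 409 such windows in the replicates, and the tip of 3R 27.6% and 48.2% of 519. Window length did matter on X: over 2 Mb, the difference on X was 5.75 points, since the second megabase of X was covered to 46.0% and 58.4%. Window position mattered on 3L, where a window moved inward by 50 kb overlaps the tip and was not among the 451. It would lose a step at 0% and gain a step covered to 37.1% and 54.0%, and so exceed the tip in both replicates.

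The distance from the assembled arm end to the first enriched region was short on X, 2L and 3R and longer on 3L. On X the first region lay 5705 bases from the end in replicate 1 and 5318 in replicate 2, on 2L 5038 and 6860 bases, and on 3R 5382 and 7027 bases. On 3L it lay 52305 and 65425 bases from the end. The means were 5512 ± 274 bases on X, 5949 ± 1288 on 2L, 6205 ± 1163 on 3R and 58865 ± 9277 on 3L (SD, n = 2 each). The ranges of X, 2L and 3R overlapped, and that of 3L stood apart from all of them. Among the higher-scoring 50% of regions this order did not hold for X, where the first lay at 80977 bases in replicate 1 and 5318 in replicate 2, against 67442 and 67413 on 3L. All of these are distances to the end of the assembly and not to the telomere itself. Whether reads could be mapped in the outermost sequence was not examined, so a stretch without regions need not lack the mark.

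On X, 2L and 3R the first regions of the replicates met each other. On X they were 5706-7424 in replicate 1, with a score of 0.402, and 5319-7741 in replicate 2, with a score of 0.742. The score is the authors' own value for a region, on a scale that no header states, and is read here as a percentile among all enriched regions of its list. Those of X stood at percentiles 6.49 and 62.0. On 2L the first regions were 5039-10101 (replicate 1, percentile 98.8) and 6861-9794 (replicate 2, percentile 59.2). On 3R they were 27894237-27899671 (replicate 1, percentile 99.1) and 27896046-27898026 (replicate 2, percentile 33.8). The outermost regions of 2L and 3R thus scored near the top of the list of replicate 1 and lower in that of replicate 2. On 3L the first region of replicate 1, 52306-53870, at percentile 17.4, was not met by replicate 2.

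The combined list began within 122 bases of the end of X, at 123-1223, with a score of 0.940. It measured 1101 bases, and neither replicate had a region there. On 2L its first region was 5020-9914 (score 1.01), covered to 99.6% by replicate 1 and 59.9% by replicate 2, and on 3R it was 27894453-27899620 (score 0.963), covered to 100% and 38.3%. On 3L it was 52347-53659 (score 0.306), covered to 100% by replicate 1 and 0% by replicate 2.

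In steps of 50 kb, the 4 tips had different profiles. On 3L, no list had an enriched base in the outermost step, and coverage then lay between 16.8% and 70.1% in replicate 1, and between 21.4% and 66.0% in replicate 2, out to 500 kb. From 500 to 850 kb each of 7 consecutive steps was covered to at least 50% in both replicates, with the highest coverage of replicate 1 from 600 to 650 kb (98.7%) and that of replicate 2 from 700 to 750 kb (95.2%). Over the rest of 3L the longest such run was 5 steps, or 250 kb. In the step from 900 to 950 kb coverage was 1.21% and 0.724%.

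On 2L the outermost step was covered to 25.9% and 9.60%, and 5 consecutive steps from 350 to 600 kb were covered to at least 50% in both replicates. The longest run elsewhere on 2L was 3 steps. The step from 500 to 550 kb was the densest, at 88.6% and 96.2%. Some steps were empty: those from 750 to 800 kb and from 900 kb to 1 Mb held no enriched base in any list, with 63.8% and 73.7% between them from 800 to 850 kb.

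On X and 3R the steps covered to at least 50% in both replicates stood singly. The outer 250 kb of X were covered to 19.1% in replicate 1 and 9.33% in replicate 2, and the step from 300 to 350 kb to 0% in both. The densest steps of X were 350 to 400 kb (58.8% and 66.6%), 500 to 550 kb (72.2% and 81.1%) and 650 to 700 kb (79.0% and 87.1%), each flanked by steps below 50% in both replicates. On 3R the densest step was 350 to 400 kb from the end (86.7% and 88.5%), and the outer 250 kb were covered to 19.9% and 20.4%. The step next to the densest, from 300 to 350 kb, was covered to 44.35% in replicate 1 and 63.6% in replicate 2. Steps covered to at least 50% in both replicates numbered 10 of 20 at the tip of 3L and 8 of 20 at that of 2L, against 15.3% and 10.9% of steps over the rest of those arms. They numbered 3 of 20 at the tip of X and 2 of 20 at that of 3R, against 22.7% and 21.9% elsewhere on those arms. Across the 20 steps of a tip, which share libraries, the replicates' coverage had a Spearman rho between 0.76 on X and 0.86 on 3R. Over the remaining steps of the 4 arms rho lay between 0.93 and 0.95. Steps empty in both replicates numbered 1, 3, 1 and 0 of 20 at the tips of X, 2L, 3L and 3R. They made up 14.7% to 19.3% of the remaining steps, and such steps can raise rho. The values are given as a description and do not compare agreement at the tips with that elsewhere.

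**Figure D2:**
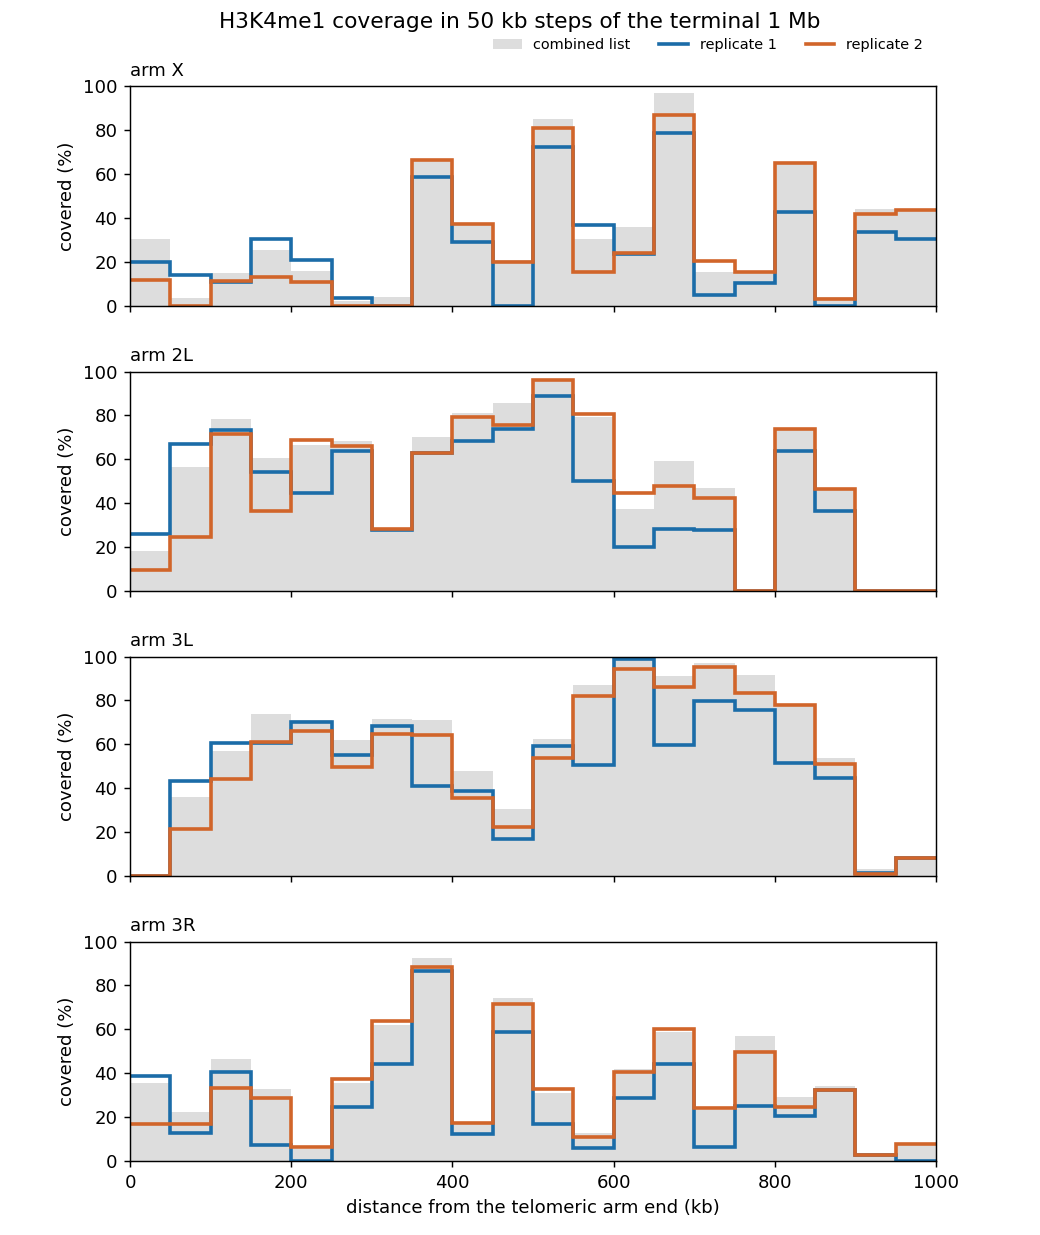
Share of bases in enriched regions (y axis, % of a 50 kb step) against distance from the telomeric end (x axis, kb) for the 4 tips, with replicate 1 as a blue line, replicate 2 as an orange line and the combined list in grey. On 3L the outermost step is at 0% and the steps from 500 to 850 kb stay at or above 50%. On X and 3R the steps at or above 50% in both replicates stand singly.

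More regions and wider regions both went with the high coverage of 2L and 3L, to different degrees. The tip of 2L held 63 regions in replicate 1 and 94 in replicate 2, against medians of 55 and 76 in the other windows, which ranked 7th and 5th on the arm. By mean width its regions ranked 1st in both, at 6948 and 5073 bases, against window medians of 4373 and 3388. The tip of 3L held 85 and 113 regions, ranking 1st and 4th, against medians of 61 and 82. Their mean width of 5784 and 4692 bases ranked 3rd and 1st, against medians of 4410 and 3538. The tip of X held 60 and 62 regions, against medians of 63 and 79, and that of 3R 58 and 90, against 58.5 and 87. By mean width the replicates differed on X, at 4340 and 4569 bases, against 4924 and 3824, ranking 17th and 6th. On 3R the mean widths were 4386 and 3701 bases, against 4972 and 3949, ranking 24th and 17th.

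Broad regions, of at least 10 kb, were more frequent at the tips of 2L and 3L than along the rest of these arms in both replicates. The tip of 2L held 11 in replicate 1 and 13 in replicate 2, against 4.36 and 3.54 per Mb over the rest of the arm. On 3L there were 11 and 9, against 5.44 and 3.82 per Mb. The 3R tip held 4 and 3, against 6.58 and 5.09 per Mb. On X the replicates went opposite ways, with 4 in replicate 1, against 6.72 per Mb, and 7 in replicate 2, against 5.74 per Mb. Broad regions made up 52.7% and 45.2% of the regions' summed width at the tip of 2L, against 26.6% and 19.9% over the rest of 2L. The rest of an arm pools dense and sparse sequence. It includes the last full window of 2L, covered to 4.16% and 2.55%, and that of 3L, covered to 0.131% and 0%. Tips were thus not compared with single windows here.

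The median width at the tip minus that over the rest of the arm was 327.5 ± 152 bases on 2L, 294 ± 292 on 3L, -722 ± 103 on X and -363 ± 18.4 on 3R (SD, n = 2). At the tip of X the medians were 2624 bases in replicate 1 and 2007 in replicate 2, against 3273 and 2802 over the rest of X. The 2L values were 3398 and 2768 bases at the tip, against 3178 and 2333. Among the higher-scoring 50% of regions, a subset chosen by score, the sign changed on X, to 216.75 bases, and on 3R, to 9.75. On 3L it changed to -60.0 once regions closer than 500 bases were merged. A 2 Mb tip changed it on X, to 289, and on 3R, to 57.0. For regions overlapping the other replicate by 50% of the shorter it changed on 3R, to 350. Apart from leaving out a replicate, the sign changed in 6 of 28 alternatives. The 3L difference was 500 bases in replicate 1 and 87.5 in replicate 2.

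Scores were lower at the tip of X and higher at that of 3L than over the rest of the arm, beyond the spread between replicates. That spread shows how well the same tip repeats, not how windows differ. Scores, like median widths and broad regions, were compared with the pooled rest of the arm and not with single windows. The median score percentile was 46.8 and 54.8 at the tip of 2L, against 45.1 and 43.5 over the rest of the arm, and 49.3 and 55.4 at the tip of 3L, against 43.3 and 45.0. At the tip of X it was 53.0 and 43.7, against 60.8 and 58.1. The differences were 6.49 ± 6.80 percentile points on 2L, 8.24 ± 3.17 on 3L, -11.1 ± 4.69 on X and 1.85 ± 5.85 on 3R (SD, n = 2), so those of 2L and 3R lay within the spread between replicates. Among the higher-scoring 50% of regions the difference on 3L was -1.17 and that on X -0.851. This subset is chosen by the score itself, which cuts the range compared, so these 2 values do not test the score difference. On 3R the sign differed between replicates, at 5.98 in replicate 1 and -2.29 in replicate 2. With a 2 Mb tip the difference on X changed sign, to 5.37, and in the combined list that on 3R was -14.0. In the outer 250 kb of X, 19 and 13 regions had median percentiles of 26.0 and 26.8 and median widths of 1753 and 1680 bases. From 500 to 750 kb on X, 20 and 26 regions stood at 59.5 and 38.4. In the outer 250 kb of 3R the 15 and 25 regions stood at 31.2 and 16.5, and in that of 2L the 18 and 29 regions stood at 66.4 and 59.2. On 3L the replicates differed there, at 35.8 over 22 regions and 60.7 over 21.

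**Figure D3:**
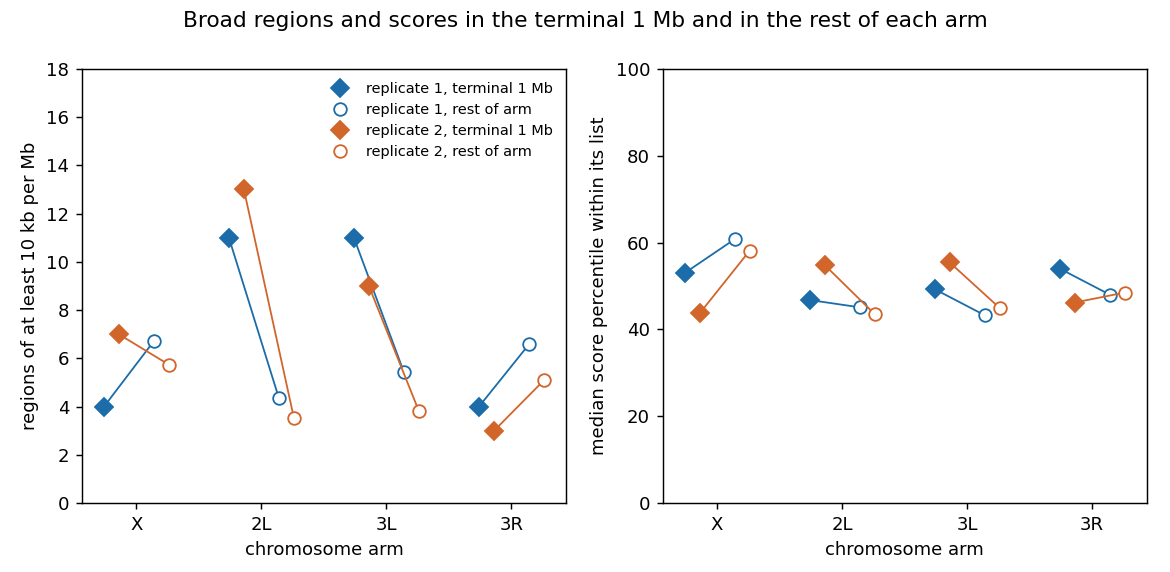
Regions of at least 10 kb per Mb (left, y axis) and the median score percentile within the list (right, y axis) by arm (x axis), with the terminal 1 Mb as filled diamonds and the rest of the arm as open circles, joined by a line for replicate 1 (blue) and replicate 2 (orange). The diamonds of 2L and 3L lie above their circles in the left panel in both replicates, while the score percentiles at the tips lie between 43.7 and 55.4.

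At the tips as a whole, the share of regions met by the other replicate was slightly below that of the full list. In replicate 1, 229 of the 266 tip regions shared at least 1 base with replicate 2 (86.1%, with a Wilson interval at 95% of 81.4 to 89.7%), against 90.1% of all enriched regions of that list. In replicate 2, 252 of the 359 tip regions did so with replicate 1 (70.2%, 65.3 to 74.7%), against 75.3% of its list. Both intervals ended just below the share of the full list, which includes the tip regions. These intervals cover counting error only and treat neighbouring regions of 1 library as independent, so they do not separate the tips from the list. By arm, the share of tip regions met was lowest at the X tip in replicate 1 (45 of 60, 75.0%) and at the 3R tip in replicate 2 (51 of 90, 56.7%), against 90.9% and 76.1% over the rest of those arms. At the 2L and 3L tips it was 92.1% and 89.4% in replicate 1, against 86.3% and 89.1% over the rest of those arms. In replicate 2 it was 74.5% and 80.5% there, against 75.4% and 76.4%. A region meets the other replicate more readily where that replicate covers more of the window. Coverage was higher at the tips of 2L and 3L than at those of X and 3R, and the shares were not adjusted for it.

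Bases shared by both replicates made up 66.9% of their union at the tip of 2L and 65.8% at that of 3L, ranking 3rd of 23 and 5th of 24 windows. The shares were 56.4% at the tip of X and 59.9% at that of 3R, ranking 18th of 22 and 23rd of 27. These shares, too, can rise with coverage and were not adjusted for it. In the combined list, 197 of the 347 tip regions (56.8%) met both replicates, against 60.7% of the list. A further 36 met replicate 1 alone (10.4%, against 7.66% of the list), 89 met replicate 2 alone (25.6%, against 23.2%) and 25 met neither (7.20%, against 8.5%). This list was made from the same ChIP samples, so meeting them is no independent evidence. Median widths were 5250 bases for tip regions that met both replicates and 1179 for those that met neither.

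The outermost 100 kb carried more enriched sequence in replicate 1 than in replicate 2 on all 4 arms, a comparison chosen after its values were seen. On 2L 46.4 kb were covered in replicate 1 and 17.1 kb in replicate 2, on X 16.9 and 5.81 kb, on 3L 21.6 and 10.7 kb, and on 3R 25.7 and 16.8 kb. Over the other 100 kb windows the median of replicate 1 minus replicate 2 was -0.227 kb on 2L, -1.93 kb on X, -1.18 kb on 3L and -3.82 kb on 3R. Ordered from the highest, the outermost window's lead of replicate 1 ranked 2nd of 230 windows on 2L, 7th of 224 on X, 11th of 245 on 3L and 10th of 279 on 3R. In the second 100 kb replicate 1 still led on X, 2L and 3L, by 8.54, 9.75 and 7.86 kb, and on 3R the difference was -6.95 kb. Replicate 1 covered fewer bases over the whole of each tip (36.1% of the 4 Mb, against 40.6% in replicate 2). Further in, replicate 1 also led in the third 100 kb on X (6.66 kb) and 3L (4.70 kb) and in the sixth on X (6.33 kb).

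**Figure D4:**
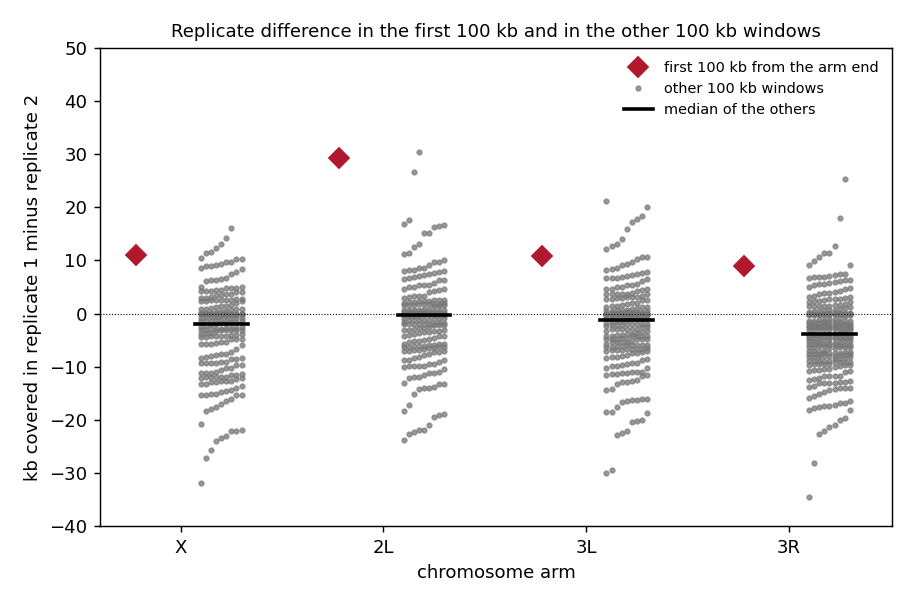
Kilobases covered in replicate 1 minus those covered in replicate 2 (y axis) for the first 100 kb from the arm end (red diamonds) and for the other 100 kb windows (grey points, black bar at their median), by arm (x axis). The 4 diamonds lie between 8.89 and 29.3 kb, while the medians of the other windows lie below 0.

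The widest regions of the tips were long domains marked in both replicates. The widest of all, 2L:476199-539228, spanned 63.0 kb with a score of 1.23, ranked 2nd by width in the combined list and 1st on 2L, and was covered to 93.1% by replicate 1 and 97.1% by replicate 2. Replicate 1 had it as 1 region and replicate 2 as 4. It was followed on 2L by 414684-447458 (32.8 kb, score 1.04) and 834064-859658 (25.6 kb, score 1.31).

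On 3L the 3 widest, 621168-656651 (35.5 kb, score 1.26), 715615-748885 (33.3 kb, 0.923) and 679204-712357 (33.2 kb, 0.967), lay close to each other and ranked 2nd, 4th and 5th by width on the arm. Replicate 1 covered 97.6%, 81.1% and 90.1% of them, and replicate 2 98.7%, 99.2% and 91.8%. On X the widest were 365704-397829 (32.1 kb, score 1.22), 817635-844442 (26.8 kb, 1.04) and 505227-529970 (24.7 kb, 1.22), covered to at least 72.0% by replicate 1 and 99.3% by replicate 2. On 3R the widest was 27530825-27554877 (24.1 kb, score 1.36), and the next, 27227830-27239773 and 27259518-27271458, measured 11.9 kb each.

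The highest scores belonged in part to shorter regions. Those with the top score of the 3L, 3R and 2L tips were 3L:375540-381041 (5.50 kb, score 1.50), 3R:27504218-27510629 (6.41 kb, 1.51) and 2L:242721-250663 (7.94 kb, 1.41), at percentiles 99.7, 99.8 and 99.5. Replicate 1 covered 98.2%, 100% and 100% of them, and replicate 2 98.2%, 96.1% and 96.9%. The second highest of 3L was 199849-207895 (8.05 kb, 1.35). On X the top score belonged to 648097-672230 (24.1 kb, 1.26), followed by the widest region of that tip. On 2L and 3R the second highest were the regions 834064-859658 and 27530825-27554877 given above.

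**Figure D5:**
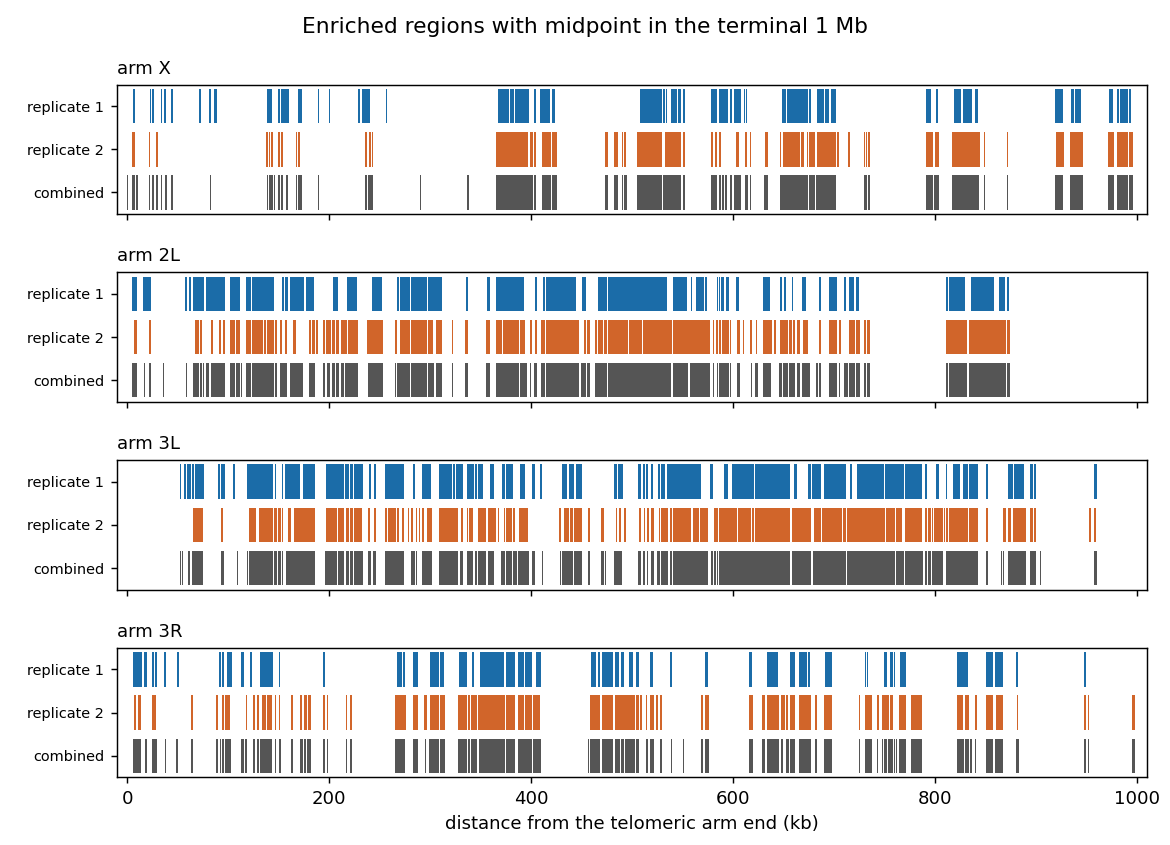
Enriched regions of replicate 1 (blue, top row), replicate 2 (orange) and the combined list (grey) by distance from the telomeric end (x axis, kb) at the 4 tips, each bar drawn to its width. The first bars lie within 7.03 kb of the end on X, 2L and 3R in the replicates and at 52.3 and 65.4 kb on 3L, and 2L has none between 875 kb and the window's inner border.

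Long stretches without enrichment interrupted each tip. On 2L, 874577-1006494 held no region of either replicate over 132 kb, of which 125 kb lay inside the window, and it ranked 21st of 1486 such stretches on that arm. On X the longest was 257782-365601 (108 kb), ranking 25th of 1493. The combined list had small regions in that stretch, and its own longest on X was 735940-790980 (55.0 kb). On 3L the longest without a region of either replicate was 900608-953382 (52.8 kb), which ranked 55th of 1770. On 3R it was 26956792-27022200 (65.4 kb), which ranked 54th of 2006. Replicate 1 alone had longer ones, of 57.1 kb on 3L and 70.6 kb on 3R. In replicate 2 alone, the outermost 65.4 kb of 3L were the longest stretch of that tip without enrichment. The ranks count stretches over a whole arm. With 23 full windows on 2L and 22 on X, ranks of 21 and 25 are not unusual for the longest stretch of 1 window.

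At the inner border, scores are given for the last combined region inside and the first outside. They were 0.545 inside and 0.437 outside on X, 0.709 and 0.473 on 2L, 0.488 and 0.568 on 3L, and 0.573 and 0.671 on 3R. On 3L the region outside, 999232-1001659, straddled the border with its midpoint 1000.45 kb from the end. None of the 39 depleted regions of replicate 2 or the 17 of the combined list lay at a tip. By the rule of 3, an upper limit at about 95% taken as 3 divided by the count, this allows shares of up to 7.69% and 17.6%. The rule treats regions of 1 list as independent, and both counts are of the whole series, not of the 4 arms alone. The tips make up 4.09% of the sequence of the 4 arms, so few would fall there at an even density, and replicate 1 held no depleted region.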

How the data were processed

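Chromatin of larval nuclei was immunoprecipitated for H3K4me1 and sequenced, with sheared input as background. Per the submitters' processing notes, the authors used Bowtie 0.12.7, and coordinates are on FlyBase release 5, per the file headers. The region caller, its threshold and the making of the combined list are unknown here, as no header or label names them. The deposited lists hold 1 score per region, which is the authors' own value with no stated scale. Scores were used as percentiles within a list.

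Coverage was computed from the union of enriched regions, in full windows counted from the telomeric end with arm lengths from the file headers. Regions belonged to a tip by their midpoint. Values per list carry the mean and SD over the 2 ChIP replicates, and no test over samples was possible. Named regions are, from the combined list, the outermost region of each tip, the 3 widest, and the 2 highest-scoring of at least 1301 bases, the narrowest width in the replicate lists, plus the longest stretch without regions. Members and lists were chosen with earlier results of these data known. Release 5 sequence and gene annotation were not used here. Coverage, distance and overlap code was tested on simulated data. Python 3.11.15, NumPy 2.4.6, SciPy 1.17.1 and Matplotlib 3.10.9 were used.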

Additional observations from a re-analysis of the deposited data

How the results depend on the processing

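No paired analysis was possible because the inputs have no region list here and the ChIP samples form a single group. Apart from leaving out a replicate, 24 of 36 alternatives moved the coverage difference by less than the SD between replicates; this held in 11 of 28 for widths, 16 of 24 for scores and 9 of 12 for first distances. With 2 replicates, leaving one out always moves the mean by less than that SD, so those values show only the range. Among the alternatives counted, taking all bases of regions by midpoint left the coverage differences of X and 3R unchanged. On 3R the SD of 3.43 points exceeds the size of the difference itself, -2.13. The counts are thus no measure of robustness. Values below are tip minus arm, and the cause of each change was not tested.

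Coverage on X was -9.21 points in the combined list, -5.24 for the higher-scoring 50%, -17.5 with 500 kb windows, 5.75 with 2 Mb windows and -8.30 without the 2 Mb next to the centromere. With 500 kb and 2 Mb windows it was 29.1 and 11.0 points on 2L, and 15.0 and 18.7 on 3L. On 3L it was 25.0 in the combined list and 18.9 for bases enriched in both replicates, and on 3R 4.38 with 500 kb windows. Leaving out a replicate gave -7.43 to -6.57 on X, 17.2 to 20.1 on 2L, 20.3 to 23.5 on 3L and -4.56 to 0.288 on 3R, the last above 0 without replicate 1.

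Width differences for the higher-scoring 50% were 216.75 bases on X, 1682 on 2L, 1186 on 3L and 9.75 on 3R. After merging regions closer than 500 bases they were -937.5, 804, -60.0 and -575. A 500 kb tip gave -862 on X, 1254 on 2L and -115 on 3R, and a 2 Mb tip 289 on X and 57.0 on 3R. Regions overlapping the other replicate by 50% gave -440 on X, 831.5 on 2L and 350 on 3R, and the combined list -612 on 3R. Leaving out a replicate gave -795 to -649 on X, 220 to 435 on 2L, 87.5 to 500 on 3L and -376 to -350 on 3R.

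Score percentile differences on X were -0.851 for the higher-scoring 50%, a subset chosen by the score itself. They were -23.7 for a 500 kb tip, 5.37 for a 2 Mb tip and -4.76 for regions overlapping the other replicate by 50%. On 3L they were -1.17 for the higher-scoring 50% and 3.88 with that overlap, and on 3R -14.0 in the combined list and 9.23 with that overlap. Leaving out a replicate gave -14.4 to -7.78 on X, 1.68 to 11.3 on 2L, 5.99 to 10.5 on 3L and -2.29 to 5.98 on 3R, the last below 0 without replicate 1.

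The first distance on X was 122 bases in the combined list and 43148 for the higher-scoring 50%, and on 3R 8065 for the latter. Leaving out a replicate gave 5318 to 5705 bases on X, 5038 to 6860 on 2L, 52305 to 65425 on 3L and 5382 to 7027 on 3R. Read depth is unknown, so regions that a list lacks may lie below its detection.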

Other observations

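The end of 2R, the large arm outside the 4 tips, was also looked at in its outermost 100 kb after the values of the others were seen. Replicate 1 covered 9.43 kb there and replicate 2 2.22 kb, and the lead of replicate 1 of 7.22 kb ranked 7th of 211 windows of 2R, over the rest of which the median of replicate 1 minus replicate 2 was -4.99 kb. In the second 100 kb of 2R that difference was -3.31 kb.

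Among 96 full windows of the 4 arms, the 3L tip ranked 1st by coverage in replicate 1 and 2nd in replicate 2, the 2L tip 5th and 6th, the X tip 59th and 62nd, and the 3R tip 63rd and 43rd.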
